A study of Mus musculus with 14 samples.

Results

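Adiponectin, encoded by Adipoq, was used to divide 12 mouse osteosarcomas into an Adipoq-high group of 5 tumours and an Adipoq-low group of 7, out of 14 arrays in the series. A tumour was called Adipoq-high where the signal of the gene's probe set, the only one of the array named for it, was at least 350 units. Osteosarcoma is a bone tumour whose cells make bone matrix, and the tumours arose in p53+/- mice, which carry 1 working copy of the p53 tumour suppressor. Both groups share this genotype and the tumour label, and the labels give no treatment, age, strain or anatomical site. The other 2 arrays, the non-tumorigenic mc3T3 osteoblast line grown untreated in culture and a tumour labelled rhabdomyosarcoma from the same kind of mouse, are given as values only. The labels do not say whether each tumour came from a separate animal, so p-values measure the spread between these samples. The tumour numbers follow the accession order and serve as names. The comparison asks which genes of fat and of stroma, the supporting tissue of a tumour, vary with adiponectin.

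Adiponectin is a hormone that fat cells secrete into the blood, and its gene is switched on late in fat cell differentiation under PPAR gamma and C/EBP alpha. It acts through the receptors AdipoR1 and AdipoR2 and binds T-cadherin on vessel walls and muscle. In bone, fat cells and fat-related stromal cells of the marrow make it. Whole tumour pieces also hold vessels, macrophages and, at their edge, muscle and soft tissue with its own fat. In bulk RNA, fewer cells of a type and less RNA per cell cannot be told apart.

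The stretches of 250 bases before the start of 4 genes are shown as examples. Adipoq set the groups, and Cyp2e1 had the largest difference of the fat genes outside the brown fat list. Tuba8 had the largest difference of the genes whose groups did not overlap on the higher side, and Myh4 stands for the muscle genes. The sequences are from RefSeq on build GRCm38.p6, which listed a promoter for 149 of the 203 genes that the naming rule allowed. Each is read 5′ to 3′ on the gene's strand, here + for all 4, and capitals mark matches of 3 motifs on either strand. The motifs were AGGTCA, a nuclear receptor half-site, CAGCTG, an E-box of the kind that myogenic factors bind, and TATAAA, the TATA box.
Adipoq: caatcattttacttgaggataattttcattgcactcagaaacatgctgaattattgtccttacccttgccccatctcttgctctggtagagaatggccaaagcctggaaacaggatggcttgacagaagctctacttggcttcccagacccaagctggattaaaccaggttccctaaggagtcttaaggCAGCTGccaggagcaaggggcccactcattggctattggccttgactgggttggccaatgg
Cyp2e1: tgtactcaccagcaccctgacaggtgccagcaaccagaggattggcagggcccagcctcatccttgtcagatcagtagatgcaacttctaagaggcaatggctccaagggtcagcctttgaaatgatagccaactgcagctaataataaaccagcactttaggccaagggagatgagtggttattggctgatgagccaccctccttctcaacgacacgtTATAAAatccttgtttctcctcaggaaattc
Tuba8: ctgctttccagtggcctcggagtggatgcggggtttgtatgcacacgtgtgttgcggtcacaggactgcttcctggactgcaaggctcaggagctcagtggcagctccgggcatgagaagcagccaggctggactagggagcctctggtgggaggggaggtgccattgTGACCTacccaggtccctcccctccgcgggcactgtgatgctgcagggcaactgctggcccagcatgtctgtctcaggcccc
Myh4: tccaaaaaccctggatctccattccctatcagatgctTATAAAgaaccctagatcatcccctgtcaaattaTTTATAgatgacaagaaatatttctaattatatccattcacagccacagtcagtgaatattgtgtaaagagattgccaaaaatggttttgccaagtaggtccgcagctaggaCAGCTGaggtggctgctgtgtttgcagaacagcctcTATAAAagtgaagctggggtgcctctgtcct
The Adipoq stretch is chr16:23146286-23146535 and held 1 match of CAGCTG, which began 61 bases before the start. The Cyp2e1 stretch, chr7:140763569-140763818, held TATAAA 31 bases before the start. The Tuba8 stretch, chr6:121210484-121210733, held 1 AGGTCA match 82 bases before the start. The Myh4 stretch, chr11:67237562-67237811, held CAGCTG at 67 bases and TATAAA at 213, 179 and 31 bases before the start. AGGTCA stands in 14% of 32851 promoter stretches of this length, CAGCTG in 13% and TATAAA in 12.4%. A match is a description of these letters and not a binding site.

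Adipoq signal was 1570 units in osteosarcoma 6, 819 in 8, 504 in 2, 462 in 9 and 434 in 12. In the Adipoq-low tumours it ran from 66.8 in osteosarcoma 4 to 274 in 3, with a median of 158. The nearest tumours on either side of the threshold were osteosarcoma 12 at 434 and osteosarcoma 3 at 274. The tumour labelled rhabdomyosarcoma read 27.5 and mc3T3 2.7. The groups were chosen by these values, which are not tested. Osteosarcoma 6 stood well above the rest, and the levels otherwise formed a gradient with no wide gap at the threshold.

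**Figure D1:**
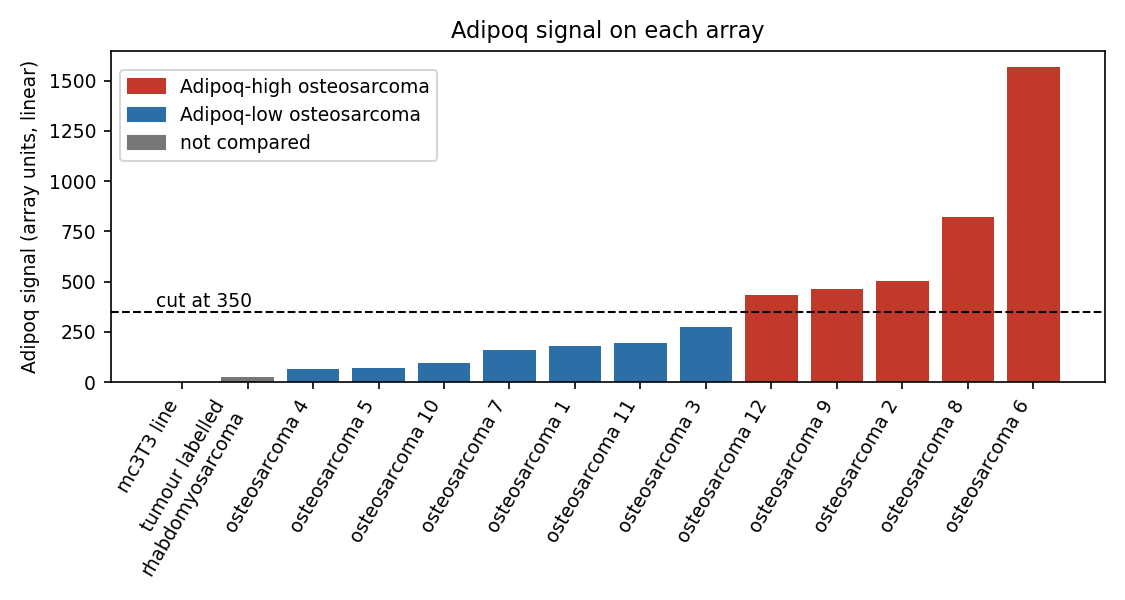
Bars give the Adipoq signal of each of the 14 arrays in linear array units, with the 350-unit threshold as a dashed line. The 5 Adipoq-high osteosarcomas lie between 434 and 1570 and the 7 Adipoq-low ones between 66.8 and 274.

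Median array signals were 67.1 to 111 units in the Adipoq-high and 70.3 to 91.4 in the Adipoq-low tumours. For beta-actin the ratio of 3' to 5' signal, which grows as RNA breaks down, was 1.51 to 2.13 (median 1.62) in the Adipoq-high and 1.42 to 1.85 (median 1.45) in the Adipoq-low tumours, and its part in the results was not tested. Osteoblast genes were bright in both groups, at a mean log2 level of 10.96 to 11.83 and 10.85 to 11.89 against 8.01 in mc3T3. Of the Adipoq-high tumours, 4 have an identifier starting with m and 1 with c; of the Adipoq-low tumours, 2 start with m, 3 with c and 2 with o. What these letters mean is not stated, so differences within m (4 against 2) and within c (1 against 3) are given beside the main results.

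No gene passed the test between the groups. With limma on 11814 genes, Adipoq left out, 0 were higher and 0 lower in the Adipoq-high tumours at an adjusted p under 0.05 and a difference of at least 1 on the log2 scale (0% of genes in either direction). The lowest adjusted p was 0.695. At an unadjusted p under 0.05 there were 376 genes on the higher side (3.18%) and 245 on the lower side (2.07%), together 621 or 5.26% of the genes tested. Differences below are therefore values and not calls, and all are on the log2(signal + 30) scale as Adipoq-high minus Adipoq-low, with SE.

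The 9 fat lists lay slightly above 0 as a whole, with large differences in a handful of members. Of 127 listed genes besides Adipoq, 99 were bright enough to test, 20 stayed below 200 units on all 14 arrays and 8 are not analysed here. The median difference of the 99 was 0.12, against 0.00 for all genes; 69 lay above 0 and 30 below. None of the 99 passed; 9 (9.09%) had an unadjusted p under 0.05 on the higher side, against 3.18% of all genes, and 0 on the lower side. A difference of at least 1 was reached by 8 of them (8.08%), against 2.01% of all genes. The filter favours the higher side here: 8 of the 99 reached 200 units on Adipoq-high arrays alone (Acacb, Cyp2e1, Gpd1, Klf15, Plin4, Retn, Trarg1 and Zic1) and 1 on Adipoq-low arrays alone, against 3.07% and 2.53% of all genes. Such genes make up 4 of the 9 (Cyp2e1, Gpd1, Klf15 and Plin4) and 3 of the 8 (Cyp2e1, Klf15 and Plin4), so these counts describe the genes that passed the filter and support nothing further. The mean level of all 9 lists was 10.36 in osteosarcoma 6, 9.87 in 8 and 9.84 in each of 2, 9 and 12. In the Adipoq-low tumours it ran from 9.44 to 9.82 with a median of 9.76, so that the groups did not overlap, by a margin of a few hundredths. This level includes the 8 genes that reached 200 units on Adipoq-high arrays alone, so the separation is a description and supports nothing further. The median difference of the lists was 0.12 within m, 0.10 within c and 0.07 without osteosarcomas 6 and 9.

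**Figure D2:**
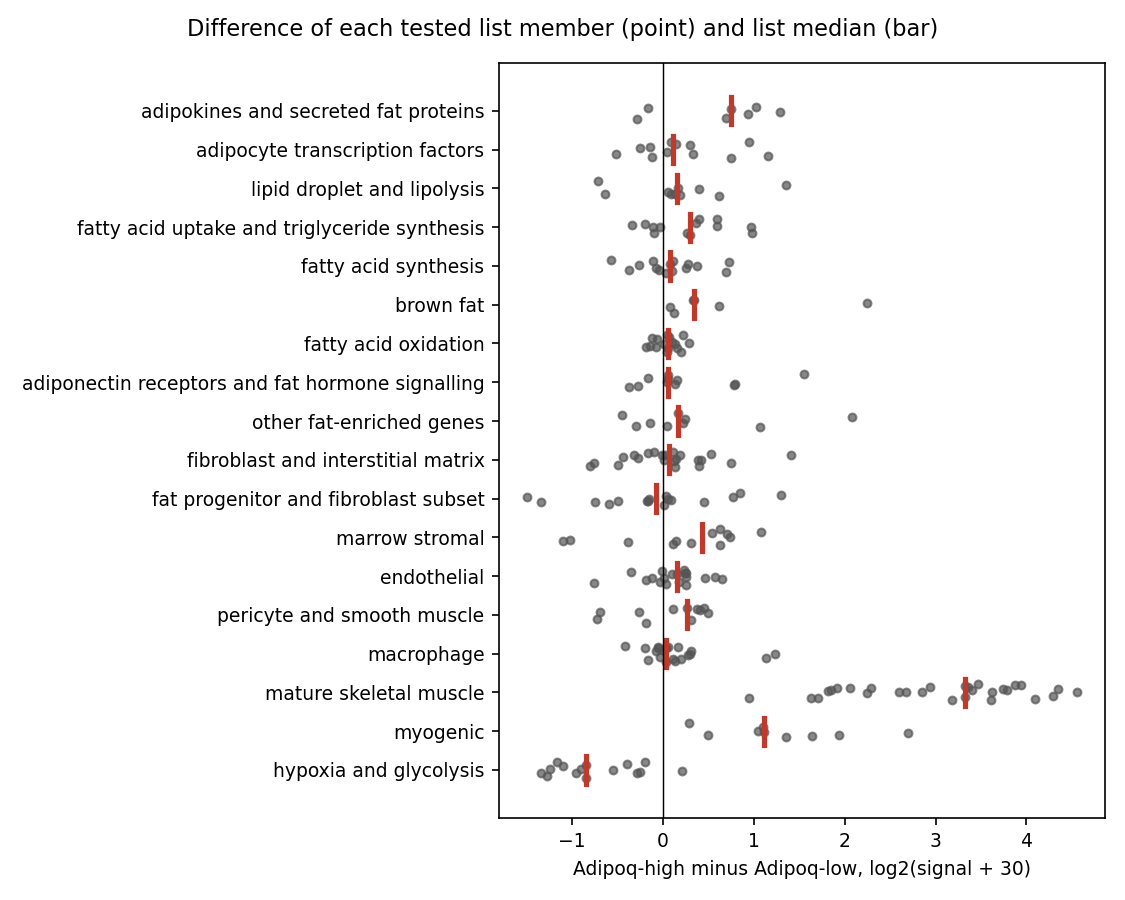
Each point is the difference of 1 tested gene between Adipoq-high and Adipoq-low osteosarcomas on the log2(signal + 30) scale, by gene list, and each bar is the list's median. The fat lists have medians from 0.05 to 0.75, the mature skeletal muscle list 3.32 and the hypoxia and glycolysis list -0.85.

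Among the secreted proteins of fat, 5 of 7 tested lay above 0 with a median difference of 0.75, the highest of the 9 fat lists. Retn, which encodes the mouse fat hormone resistin, had 437 units in osteosarcoma 6, 21.2 in 8, 462 in 2, 157 in 9 and 143 in 12, against 38.6 to 125 (median 82.4) in the Adipoq-low tumours. All but osteosarcoma 8, the tumour with the second-highest Adipoq, lay above the Adipoq-low range, and the difference was 0.94 ± 0.47, or 0.41 with the mean level of a list of skeletal muscle genes, described further on, as a covariate. Hp, haptoglobin, an acute-phase protein that fat also secretes, had 3077, 2604, 1643, 434 and 654 units in osteosarcomas 6, 8, 2, 9 and 12, against 178 to 3330 (median 416). All 5 values lay inside the Adipoq-low range (1.28 ± 0.64). Rarres2, the adipokine chemerin, had a difference of 1.02 ± 0.53 and Agt, angiotensinogen, one of 0.75 ± 0.49. Within m their differences were 0.19 and -0.62. Rbp4, the retinol carrier, had a median of 2690 units in the Adipoq-low tumours and 1479 to 2647 in the Adipoq-high ones, while its difference of mean log2 values was 0.69 ± 0.78, with -0.59 within m and 0.46 within c. The list's median was -0.03 within m and 0.84 within c. Lep, the fat hormone leptin, reached at most 53.7 units on any array, Serpina12 163 and Sfrp5 171. Cfd, adipsin, is not analysed here.

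Of 12 tested transcription factors of fat cells, 8 lay above 0 and the median difference was 0.11. Pparg, the master regulator of fat cell differentiation, had 1094 units in osteosarcoma 8, 257 in 6, 154 in 12, 107 in 2 and 86.9 in 9. The Adipoq-low tumours had 11.6 to 205 (median 142). Only osteosarcomas 8 and 6 exceeded that range, and the difference was 0.95 ± 0.57. Klf15, a late factor of fat cells that muscle also expresses, read 229 in 6, 4.2 in 8, 224 in 2, 26.6 in 9 and 120 in 12 against 3.4 to 105 (median 19) in the Adipoq-low tumours. It differed by 1.15 ± 0.52, with osteosarcoma 8 again at the bottom. Ebf1, an early factor of fat and B cell lineages, differed by 0.75 ± 0.38, with 3 of 5 Adipoq-high tumours above the Adipoq-low range. Cebpa, which works with Pparg, had 485 to 2461 units against 512 to 1420 and a difference of 0.30 ± 0.37.

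The lipid droplet and lipolysis list had 8 of 10 tested genes above 0 and 2 below, with a median difference of 0.15. Plin4, a coat protein of the droplet in fat and muscle, had 955 units in osteosarcoma 6, 101 in 8, 135 in 2, 215 in 9 and 80.6 in 12, against 19.8 to 99.9 (median 66) in the Adipoq-low tumours. Its difference was 1.35 ± 0.45 (limma adjusted p = 0.831), and 4 of 5 Adipoq-high tumours exceeded the Adipoq-low range. Without osteosarcomas 6 and 9 it was 0.60. Pnpla2, the lipase that starts the breakdown of stored triglyceride, had 1035, 567, 1134, 814 and 1325 units in osteosarcomas 6, 8, 2, 9 and 12 against 465 to 853 (median 574). Its difference of 0.62 ± 0.23 was 0.63 without osteosarcomas 6 and 9. Plin2, the droplet coat protein of many cell types, and Hilpda, an inhibitor of that lipase which hypoxia induces, lay on the lower side, at -0.64 ± 0.37 and -0.72 ± 0.35. Lipe, the hormone-sensitive lipase, differed by 0.09. Cidec, Cidea and Aqp7, which mature fat cells use to form large droplets and release glycerol, reached at most 86.4, 70.4 and 82.8 units on any array, and Plin5 199. Plin1, the main coat protein of the fat cell droplet, is not analysed here.

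Of 13 tested genes of fatty acid uptake and triglyceride synthesis, 8 lay above 0, with a median difference of 0.30. Cd36, the fatty acid transporter of fat, muscle, vessels and macrophages, had 1395 units in osteosarcoma 6, 1373 in 8, 354 in 2, 574 in 9 and 323 in 12, against 158 to 648 (median 289) in the Adipoq-low tumours. Osteosarcomas 6 and 8 alone exceeded that range. Its difference was 0.97 ± 0.44, 1.72 within m and -0.31 within c. Fabp4, the fatty acid carrier of fat and vessels, was bright throughout, at 11000, 15732, 4007, 6608 and 6041 units in osteosarcomas 6, 8, 2, 9 and 12 against 4130 to 9400 (median 5670). The difference was 0.37 ± 0.34. Lpl, lipoprotein lipase, followed the same order at the top, with 17279 units in osteosarcoma 8 and 7961 in 6 against a highest Adipoq-low value of 6760 (0.59 ± 0.50). Gpd1, which makes glycerol phosphate for triglyceride, read 452 in 6, 95.7 in 8, 145 in 2, 134 in 9 and 117 in 12 against 4.6 to 120 (median 93.5). Its difference was 0.98 ± 0.39, 0.61 without osteosarcomas 6 and 9 and 0.59 with the muscle level as a covariate. Gpihbp1, which anchors Lpl to capillary walls, lay on the lower side at -0.34 ± 0.21.

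Genes that make or burn fatty acids had small differences. The 15 genes of fatty acid synthesis had a median difference of 0.08, between -0.57 for Me1, malic enzyme, and 0.73 for Thrsp, a lipogenic factor. The 16 genes of fatty acid oxidation had a median of 0.05 and none exceeded 0.28 in size. Of the brown fat list, 6 of 11 named genes were bright enough and all 6 lay above 0, with a median of 0.34. The list's median was 0.36 within m, -0.43 within c and 0 without osteosarcomas 6 and 9. Zic1, a member of this list, had 398 units in osteosarcoma 6 and 1.8 to 21.9 in the other Adipoq-high tumours. The Adipoq-low tumours had 1.8 to 54.2 (median 31), and the difference of Zic1 was 0.12 ± 0.57. Ucp1, the heat-producing protein that defines brown fat, reached at most 30 units on any array, and Elovl3 115. Cox8b, a cytochrome oxidase subunit of brown fat, heart and muscle, had 4682 units in osteosarcoma 6, 214 in 8, 15.2 in 2, 1098 in 9 and 100 in 12. The Adipoq-low tumours had 5.9 to 467 (median 40.6). Its difference of 2.24 ± 0.97 was 0.50 without osteosarcomas 6 and 9 and -1.0 with the muscle level as a covariate.

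The receptors of adiponectin had differences close to 0. Adipor1 had 2247 to 3874 units in the Adipoq-high and 2390 to 3470 in the Adipoq-low tumours, a difference of 0.06 ± 0.17. Adipor2 had 1377 to 2373 against 1410 to 1900, a difference of 0.04 ± 0.17. Cdh13, T-cadherin, differed by -0.27 ± 0.36. Appl1, the adaptor protein of the receptors, differed by 0.13. In the same list Slc2a4, the insulin-responsive glucose transporter of fat and muscle, had 703 units in osteosarcoma 6, 350 in 8, 257 in 2, 378 in 9 and 239 in 12, against 22.8 to 260 (median 117). Of the 5 Adipoq-high tumours 3 exceeded the Adipoq-low range, and the other two lay just inside its top. The difference was 1.55 ± 0.41 (limma adjusted p = 0.695), 0.71 within m, 1.66 within c and 0.76 with the muscle level as a covariate.

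Cyp2e1 and Car3 led the remaining fat-enriched genes. Cyp2e1, a cytochrome P450 of liver and fat, had 1186 units in osteosarcoma 6, 875 in 12, 550 in 2, 97.6 in 9 and 74.4 in 8, against 27.7 to 96.3 (median 52.5) in the Adipoq-low tumours. It was bright in 3 Adipoq-high tumours and at the Adipoq-low level or next to it in the other two. The difference was 2.08 ± 0.56 (limma adjusted p = 0.695), 2.06 within m, 2.62 within c, 2.06 without osteosarcomas 6 and 9 and 1.99 with the muscle level as a covariate. Car3, a carbonic anhydrase very abundant in fat and slow muscle, had 44394, 33127, 28184, 36405 and 43585 units in osteosarcomas 6, 8, 2, 9 and 12. The Adipoq-low tumours had 8270 to 31000 (median 19300), mc3T3 had 26.2 and the tumour labelled rhabdomyosarcoma 383. Its difference was 1.07 ± 0.29, with 4 of 5 Adipoq-high tumours above the Adipoq-low range; it was 0.98 without osteosarcomas 6 and 9 and 0.69 with the muscle level as a covariate. Adig and Mrap, further fat cell genes, reached at most 70.5 and 38 units on any array.

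**Figure D3:**
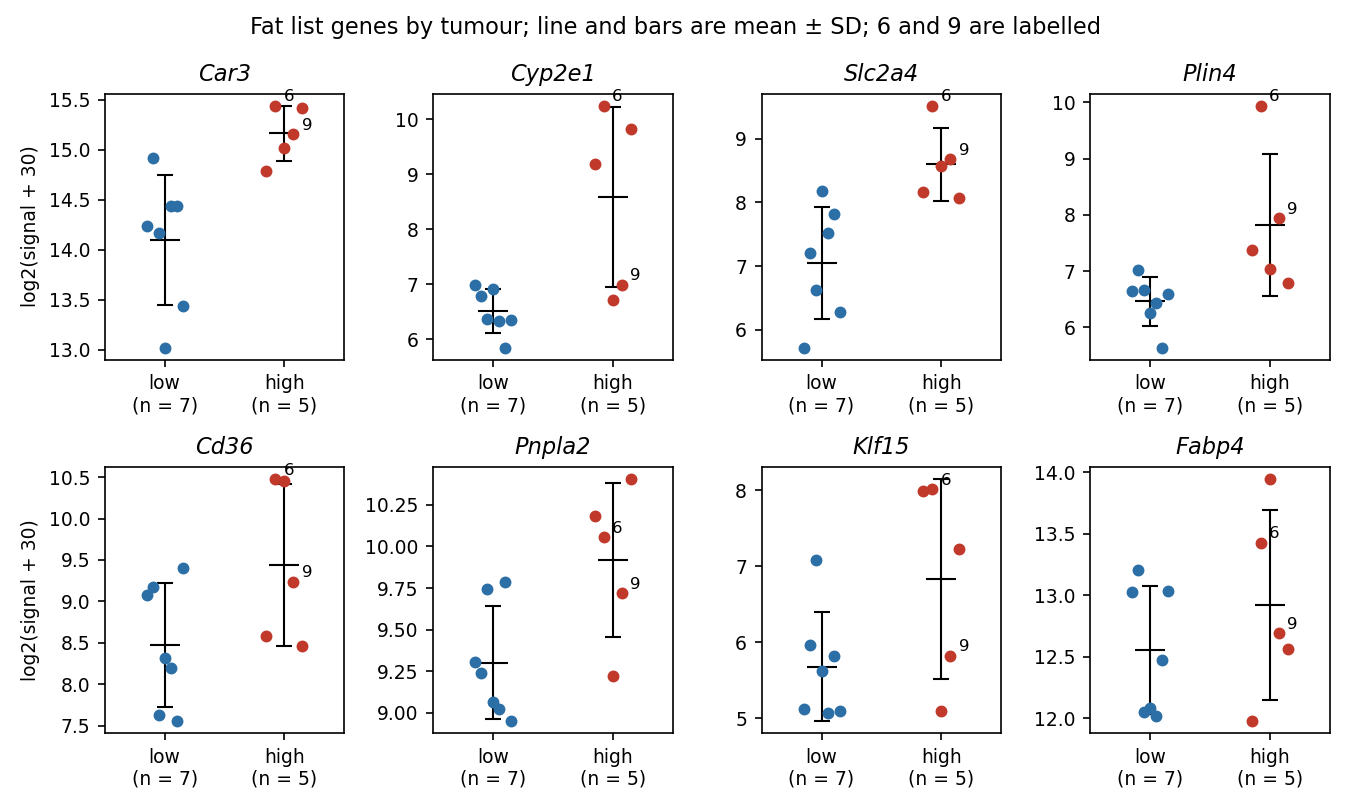
Each panel plots 1 fat list gene in the 7 Adipoq-low and 5 Adipoq-high osteosarcomas on the log2(signal + 30) scale, with mean ± SD and its own axis range. For Car3, Cyp2e1 and Plin4, 4 of 5 Adipoq-high tumours exceed the Adipoq-low range, whereas Fabp4 has 2 that do.

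The fat genes did not order the 5 tumours alike. Osteosarcoma 6 was the brightest of the Adipoq-high group for Plin4, Gpd1, Slc2a4, Cyp2e1, Car3, Cd36 and Cox8b. Osteosarcoma 8 was the brightest for Pparg, Fabp4 and Lpl and the dimmest for Retn, Klf15, Cyp2e1 and Gpd1. With the muscle level as a covariate the differences of Plin4, Cd36 and Pparg were 0.35, 0.27 and 0.23, and those of Lpl and Fabp4 were -0.14 and -0.13. Osteosarcoma 12, next to the threshold, had 875 units of Cyp2e1 and the lowest Lpl of the group at 1772.

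The stromal and vessel lists were centred near 0. Of 86 listed genes 80 were tested, their median difference was 0.11, 50 lay above 0 and 30 below, and none passed. At an unadjusted p under 0.05 there were 3 on the higher side (3.75%) and 4 on the lower side (5%), against 3.18% and 2.07% of all genes. A difference of at least 1 in size was reached by 3 on the higher and 4 on the lower side, against 2.01% and 0.728% of all genes. The median was -0.13 within m, -0.05 within c and -0.01 without osteosarcomas 6 and 9. Of 22 fibroblast and matrix genes 13 lay above 0 (median 0.06). Lum, the collagen-binding proteoglycan lumican, had the largest difference at 1.41 ± 0.86, with 5301 to 28452 units against 383 to 27400, and 0.58 with the muscle level as a covariate.

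Among 16 genes of fat progenitors and fibroblast subsets, 8 lay above 0 and 8 below (median -0.07), with large differences on both sides. Cd55, a complement regulator on progenitors of connective tissue, had 247 units in osteosarcoma 6, 176 in 8, 34.1 in 2, 178 in 9 and 155 in 12, against 6.5 to 116 (median 38.7). All but osteosarcoma 2 exceeded the Adipoq-low range, and the difference was 1.30 ± 0.42, with 0.44 once the muscle level was a covariate. Cd55 reached 200 units in osteosarcoma 6 alone, so the filter favours the higher side for this gene. Scara5, a ferritin receptor of fibroblasts, had 1027, 179, 919, 376 and 198 units in osteosarcomas 6, 8, 2, 9 and 12 against 267 to 4060 (median 1850). Its difference was -1.50 ± 0.67, and all 5 Adipoq-high values lay below the Adipoq-low median. Smoc2, a matricellular protein of fibroblasts, differed by -1.34 ± 0.79.

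Marrow stromal genes, which include cells that in bone express Adipoq, had a median difference of 0.43 with 9 of 12 above 0, but -0.22 within m. Cxcl12, the chemokine that holds blood stem cells in the marrow, had 3274, 13576, 15362, 2281 and 8281 units in osteosarcomas 6, 8, 2, 9 and 12 against 782 to 11700 (median 3690), a difference of 1.08 ± 0.73 and of -0.28 within m. Lepr, the leptin receptor that marks marrow stromal cells, lay on the other side at -1.03 ± 0.67. It had 301 units in osteosarcoma 6 and 248 in 8, the tumours with the highest Adipoq, and 4317 in 2, against 777 to 4830 (median 2570). The difference of Lepr was -0.70 without osteosarcomas 6 and 9 and 0.03 with the muscle level as a covariate, and that of Cxcl12 was 1.93 and 2.07 in these fits. Kitl, stem cell factor, differed by 0.74 ± 0.47. Grem1, a BMP antagonist of stromal cells, had 60.7, 61.5, 15.1, 61.5 and 49 units in osteosarcomas 6, 8, 2, 9 and 12 against 55.1 to 331 (median 115). All 5 lay below the Adipoq-low median, and the difference was -1.10 ± 0.35 (limma adjusted p = 0.731).

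Vessel genes had small differences. Of 19 endothelial genes 13 lay above 0, with a median of 0.15. Ptprb, a phosphatase of vessel walls, had 653 to 868 units against 382 to 848 (0.57 ± 0.20), the angiopoietin receptor Tek 310 to 607 against 145 to 733 (0.65 ± 0.33), and Ecscr, an endothelial surface protein, -0.76 ± 0.36. With the muscle level as a covariate Ptprb differed by 0.28 and Tek by 0.38. Of 11 pericyte and smooth muscle genes, Kcnj8, a potassium channel of pericytes, differed most at -0.73 ± 0.31. The 21 macrophage genes had a median of 0.03, with their level at 11.26 to 12.54 against 10.25 to 12.22. Their median was -0.29 within m and 1.4 within c, where osteosarcoma 2 is the only Adipoq-high tumour. Cd163, a receptor of tissue-resident macrophages, had 575, 761, 638, 425 and 658 units in osteosarcomas 6, 8, 2, 9 and 12 against 141 to 717 (median 228). Only osteosarcoma 8 exceeded the Adipoq-low range, and the difference was 1.14 ± 0.32 (limma adjusted p = 0.695). Lyve1, which such macrophages and lymph vessels express, differed by 1.24 ± 0.49. Within m Cd163 differed by 0.68 and Lyve1 by 0.9, and within c by 1.4 and 2.33.

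Skeletal muscle genes differed far more than fat genes. All 29 genes of the mature muscle list were tested and all lay above 0, with a median difference of 3.32; 27 (93.1%) had an unadjusted p under 0.05 on the higher side, against 3.18% of all genes, and none passed the adjusted test or had groups without overlap. The mean level of the list was 13.36 in osteosarcoma 6, 12.25 in 9, 10.36 in 8, 9.30 in 2 and 9.02 in 12. In the Adipoq-low tumours it ran from 6.37 in 11 to 10.58 in 3, with a median of 7.72; it was 6.13 in mc3T3 and 7.20 in the tumour labelled rhabdomyosarcoma. Osteosarcoma 3, the Adipoq-low tumour nearest to the threshold, had a higher muscle level than 3 of the Adipoq-high tumours. The median difference was 2.78 within m, 2.32 within c and 1.76 without osteosarcomas 6 and 9. The list's summed signal was 24700 to 489000 units in the Adipoq-high and 2410 to 67500 in the Adipoq-low tumours. The part of muscle in the differences of fat genes was not tested. The muscle level itself differed between the groups, so the fit with it as a covariate cannot separate muscle from the grouping. Values from that fit are descriptions.

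Tnnt3, fast skeletal troponin T, had the largest difference of the list. It read 36529 units in osteosarcoma 6, 2706 in 8, 927 in 2, 16341 in 9 and 854 in 12, against 3 to 2780 (median 114), a difference of 4.56 ± 1.12. Myh4, the fastest myosin heavy chain, read 43807, 3157, 584, 28724 and 82.2 in osteosarcomas 6, 8, 2, 9 and 12 against 23.1 to 2150 (median 77.2), a difference of 4.29 ± 1.39. Osteosarcoma 12 lay near the Adipoq-low median here. Of the 9 tested genes of muscle precursors and developing muscle, all lay above 0, with a median of 1.11, and of 0.41 without osteosarcomas 6 and 9; 4 of the 9 reached 200 units on Adipoq-high arrays alone, as did 0 of the 29 mature muscle genes. Myf6, a myogenic transcription factor of mature fibres, differed by 2.70 ± 0.67 and Myh3, the embryonic myosin, by 1.94 ± 0.38. Pax7 and Myf5, the factors of muscle stem cells, reached at most 56.9 and 40.9 units on any array.

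Across the 12 tumours, the log2 level of Adipoq had a Pearson correlation of 0.80 (Spearman 0.76) with the level of the mature muscle list and of 0.72 (Spearman 0.85) with that of the 9 fat lists. These are descriptions over the 12 tumours, which include the high-Adipoq, high-muscle osteosarcoma 6. The 10 genes with the highest Pearson correlation with Adipoq were led by Fto (0.89), an RNA demethylase known from obesity genetics, Mybpc1 (0.88), a myosin-binding protein, and Myhas (0.87), a transcript of the myosin cluster. None of the 10 was a member of the 9 fat lists; the highest values among fat genes named above were those of Plin4 and Cd36, both at 0.82, followed by Car3 at 0.77. Fto itself had 1838, 1801, 1402, 1251 and 957 units in osteosarcomas 6, 8, 2, 9 and 12 against 794 to 1160 (median 1090), a difference of 0.48 ± 0.19.

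**Figure D4:**
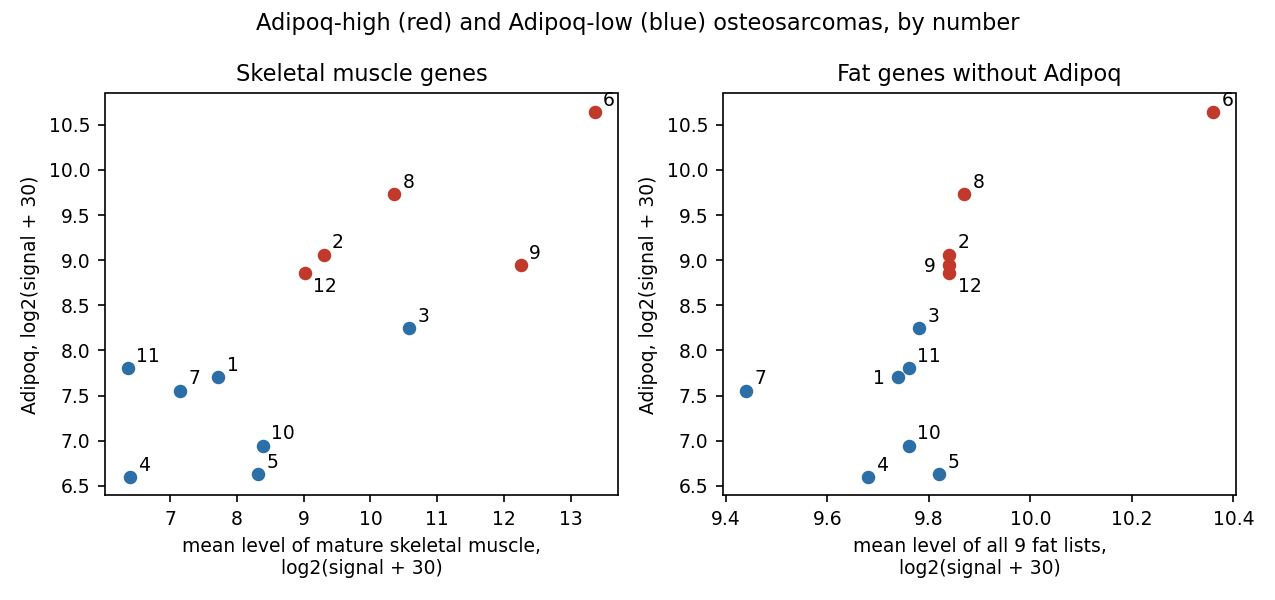
The Adipoq level is plotted against the mean level of the mature skeletal muscle list (left) and of the 9 fat lists without Adipoq (right), each on the log2(signal + 30) scale, for 12 osteosarcomas labelled by number. Osteosarcoma 6 is at the top right of both panels, and the muscle axis spans 6.37 to 13.36 against 9.44 to 10.36 for the fat axis.

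The groups did not overlap in 15 genes on the higher side (0.127% of genes) and 18 on the lower side (0.152%). In groups this small, shares of this size can arise by chance alone, and the counts were not tested against chance. The absence of overlap is therefore a description and does not by itself set a gene apart. None of these genes was in a fat list or in a stromal or vessel list. Tuba8, an alpha-tubulin of muscle, testis and brain, read 704 units in osteosarcoma 6, 67.7 in 8, 236 in 2, 146 in 9 and 96.7 in 12, against 4.9 to 61.1 (median 13.3). Its difference of 2.14 ± 0.43 (limma adjusted p = 0.695) was the largest of the 15. This difference was 1.63 without osteosarcomas 6 and 9 and 1.08 with the muscle level as a covariate. Tuba8 reached 200 units on Adipoq-high arrays alone, as did Myh3, so the filter favours the higher side for both. Myh3, Hoxb5os (1.92 ± 0.71), Tmem182 (1.89 ± 0.41), a membrane protein of muscle and fat, and Pstpip2 (1.21 ± 0.33), a membrane-bending adaptor of myeloid cells, came next. Hoxb5os, an antisense transcript of the Hoxb cluster, rested on osteosarcoma 6, with 3806 units there and 105 to 213 in the other Adipoq-high tumours, and was 1.05 without 6 and 9. With the muscle level as a covariate, Myh3, Hoxb5os and Tmem182 had differences of 0.81, 0.71 and 0.71.

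Has2, the main hyaluronan synthase of connective tissue, had the largest difference of the 18 genes on the lower side. It read 38.3 units in osteosarcoma 6, 27.7 in 8, 64.9 in 2, 43.4 in 9 and 29.7 in 12, all below 200, against 94.4 to 809 (median 332) in the Adipoq-low tumours. The tumour labelled rhabdomyosarcoma had 1406 and mc3T3 699. The difference was -2.34 ± 0.42 (limma unadjusted p = 7.45e-05, adjusted p = 0.695), -1.79 within m, -2.72 within c, -2.35 without osteosarcomas 6 and 9 and -1.90 with the muscle level as a covariate. S100a10, a calcium-binding partner of annexin A2, was among the 18 at 8867 to 12521 units against 13400 to 21100 (-0.57 ± 0.17). These counts changed when single tumours were left out, and each count below is of the 11814 genes tested. A smaller group overlaps less, but the counts also differed between leave-outs of equal size. Osteosarcomas 3 and 4 are both Adipoq-low, and the higher count was 60 without 3 and 23 without 4. Without osteosarcoma 2, 3, 4, 5, 7, 8, 9, 10 or 12 the higher count was 40, 60, 23, 24, 29, 34, 27, 39 and 38. Without osteosarcoma 1, 2, 4, 6, 7, 8, 9, 10, 11 or 12 the lower count was 28, 49, 31, 35, 31, 56, 28, 33, 33 and 36.

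**Figure D5:**
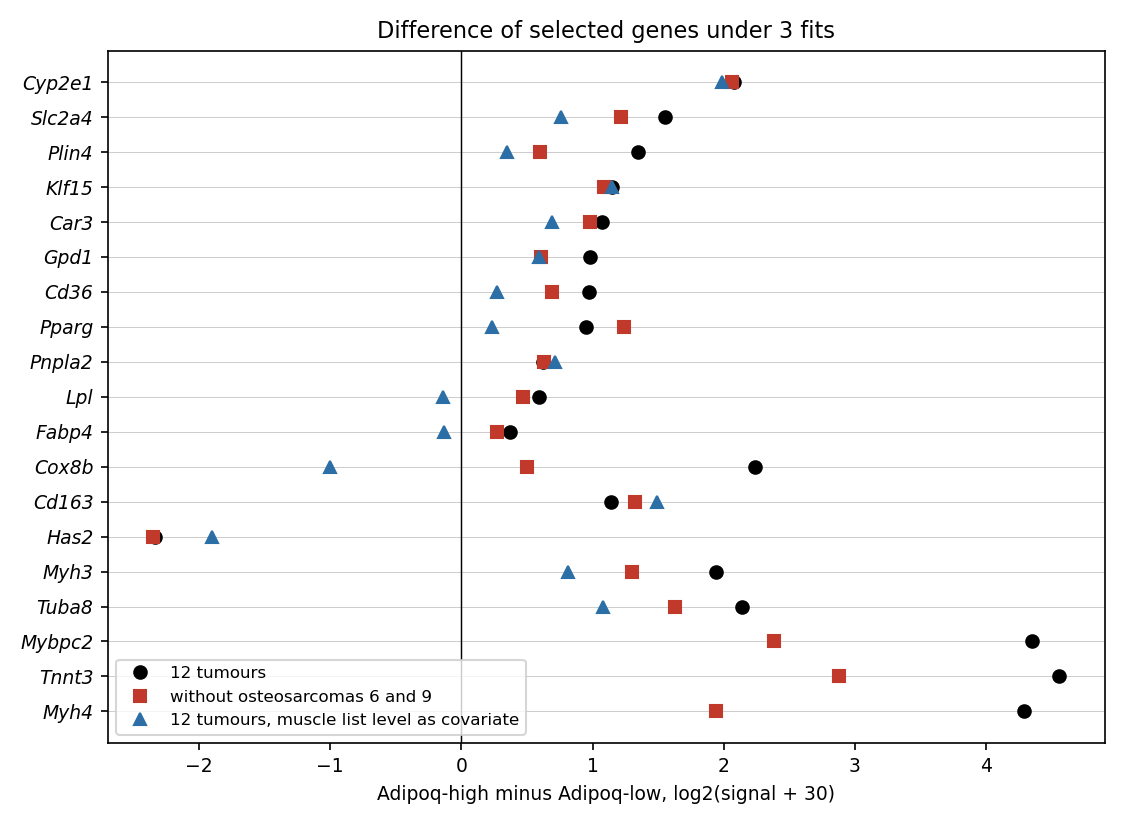
For 19 genes, the difference between Adipoq-high and Adipoq-low osteosarcomas is shown from all 12 tumours, without osteosarcomas 6 and 9, and with the level of the mature muscle list as a covariate, which is left out for 3 genes of that list. Cyp2e1, Klf15, Pnpla2 and Has2 have similar values in the 3 fits, whereas Cox8b goes from 2.24 to 0.50 and -1.0.

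Genes of hypoxia and glycolysis lay on the lower side, with a median difference of -0.85 and 14 of 15 below 0; 5 (33.3%) had an unadjusted p under 0.05 on that side, against 2.07% of all genes, and none passed. Slc2a1, the glucose transporter of glycolytic cells, had 647, 1026, 1262, 795 and 1140 units in osteosarcomas 6, 8, 2, 9 and 12 against 663 to 8900 (median 2390), a difference of -1.28 ± 0.56. Egln3, an oxygen sensor that hypoxia induces, differed by -1.34 ± 0.58 and Ankrd37 by -1.25 ± 0.47. Car9, the tumour-associated carbonic anhydrase, differed by -1.16 ± 0.52. Car9 is 1 of the 5 and reached 200 units on Adipoq-low arrays alone, so the filter favours the lower side for it. The list's level was 10.15 to 10.55 in the Adipoq-high and 10.10 to 12.26 in the Adipoq-low tumours, with osteosarcomas 11 and 5 highest at 12.26 and 12.15. The list's median was -0.79 within m, -0.74 within c and -0.99 without osteosarcomas 6 and 9.

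The other marker lists, of bone, cartilage, blood, nerve, skin and dividing cells, had median differences from -0.27 for the cell cycle to 0.50 for neutrophils and for red cell precursors. Col2a1, the collagen of cartilage, had the largest difference among them, at 2.44 ± 0.99. It had 14732 units in osteosarcoma 6 and 839 to 5251 in the other Adipoq-high tumours, against 70.5 to 6880 (median 287). Without osteosarcomas 6 and 9 the list median was -0.12 for neutrophils and -0.14 for red cell precursors. Osteosarcoma 6 had the highest level of both lists, at 11.82 and 10.14.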

How the data were processed

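Total RNA of 12 osteosarcomas, a tumour labelled rhabdomyosarcoma and the mc3T3 line was extracted on silica columns and labelled with biotin, per the labels' protocols. The authors deposited 1 table of array intensity on a linear scale for 45101 probe sets and 14 arrays; the submitters' processing notes name GCOS, with its version and the background step not given in the sources used here. The trimmed mean of every array (highest and lowest 2% dropped) was 500, which the values show. Detection calls were not used; dim genes may therefore be background. Precision is set by how many arrays a group has. Groups came from titles, since the description field names mc3T3 throughout.

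Here that trimmed mean was set to exactly 500 on every array and values were taken as log2(signal + 30), which understates differences of dim genes. Probe sets with at least 200 units on at least 1 array were kept, and a gene was its brightest probe set. Symbols came from the platform annotation, brought up to date through the GRCm38.p6 RefSeq genes; a single symbol was available for 34945 probe sets, several for 932 and none for 9160. The groups were compared in R 4.3.3 with limma 3.58.1 (lmFit, eBayes, two-sided, Benjamini-Hochberg over 11814 genes), tested on simulated data. The members and the 29 gene lists (431 genes, of which 29 are not analysed here and 49 were too dim) were chosen with earlier results of these data known, and support nothing by themselves. Genes could be named if they were in a fat list, among the 10 largest differences without overlap on each side, among the 4 largest of another list, or among the 10 most correlated with Adipoq; Brinp3, Myf5 and Pax7 were named after their values were seen. Alternatives changed the pseudocount, filter, scaling, probe set choice, threshold, covariates, array weights and tumours.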

Additional observations from a re-analysis of the deposited data

Results flagged for a closer look

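A tumour was singled out where its gap to the nearest other tumour of its group, on the log2 scale, was a large share of the group's range (Dixon's 95% limits). Chance singles out about 1 in 20 groups, and 19 values arose from 162 group checks.

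In the Adipoq-high group, osteosarcoma 6 was above the other 4 tumours for the mean level of all 9 fat lists (10.36), of the lipid droplet and lipolysis list (9.88) and of the list of adiponectin receptors and fat hormone signalling (10.21). It was also above them for the signal of Gpd1 (452), Lpin1 (2079), a phosphatidate phosphatase of triglyceride synthesis, Flt1 (595), a receptor of vessel growth factors, and Hoxb5os (3806). Osteosarcoma 2 was the lowest for Cd55 (34.1) and Grem1 (15.1) and the highest for the level of the macrophage list (12.54). Osteosarcoma 12 had the lowest level of the cell cycle list, 9.18.

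In the Adipoq-low group, osteosarcoma 3 was above the others for the muscle genes Mybpc1 (1040) and Mybpc2 (559), for Cox8b (467) and for the level of the myogenic list (8.64). Osteosarcoma 7 was below the others for the level of all 9 fat lists (9.44) and for Pstpip2 (57.9). Osteosarcoma 5 had the lowest Gpd1 signal (4.6). Osteosarcoma 10 had the highest level of the endothelial list, 10.38.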

How the results depend on the processing

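Under 25 alternatives, limma called 0 genes higher, 0 fat list genes higher and 0 stromal or vessel genes in either direction, and the number of genes at an unadjusted p under 0.05 ran from 371 to 917. The 1 exception was on the lower side: the count of genes lower was 0 to 1 when tumours were left out in turn, the 1 being Brinp3 without osteosarcoma 2 (difference -4.26, limma adjusted p = 0.0354, against -3.09 and 0.731 with all 12), with 2020 units in osteosarcoma 2 and 0.9 to 14.8 in the other Adipoq-high tumours. The count of genes whose groups did not overlap on the higher side was 15 of 11814 in the main fit. It was 25 of 18192 with no filter and 8 of 9538 with a median filter. Of 11814 genes it was 27 with 1 tumour fewer in the high group, 52 with 1 more and 49 without osteosarcomas 6 and 9. With tumours left out in turn it was 20 to 60 of 11814. On the lower side it went from 18 to 10 with 1 tumour more and 65 without osteosarcomas 6 and 9, and was 21 to 56 with tumours left out in turn. The median difference of the fat lists was 0.06 to 0.18, of the muscle list 1.76 to 3.80 and of the hypoxia list -1.08 to -0.57; that of the stromal and vessel lists, -0.11 to 0.18, changed sign. With the muscle level as a covariate, Acacb (0.69), Cox8b (2.24) and Mfap4 (0.74) went to -0.80, -1.0 and -1.25; Mfap4 was -0.66 without osteosarcomas 6 and 9. The cause was not tested. No paired analysis was possible, because the labels give nothing that pairs a tumour of 1 group with a tumour of the other.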
